A study of Mus musculus with 6 samples.

Results

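CC chemokines are small secreted proteins that draw leukocytes along a gradient through G protein-coupled receptors of the CCR family. Macrophages are a main source of them, and inflammatory stimuli such as LPS and interferon-γ raise the transcription of many, but not all, of them. Ccl2, Ccl7 and Ccl12 act through CCR2 and recruit monocytes, Ccl3, Ccl4 and Ccl5 draw in monocytes and T cells, Ccl6 and Ccl9 act through CCR1, and Ccl17 and Ccl22 act through CCR4, a receptor of T helper type 2 and regulatory T cells. These 10 genes were taken by symbol from the 19309 genes of the count table, and all 10 were found, each on 1 row.

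The count table covered 6 libraries of bone marrow-derived macrophages driven to an M2c state in culture, 3 from sEH-/- mice and 3 from wild-type littermates. In the sEH-/- mice Ephx2, which encodes soluble epoxide hydrolase, an enzyme that turns lipid epoxides into diols, is deleted in every cell from conception, so the cells had lacked the enzyme before they were put in culture. The mice were 8 to 10 weeks of age, each library came from 1 mouse, and wild-type cells served as the controls. Per the labels, marrow cells of both genotypes were grown for 7 days with M-CSF and GM-CSF, then given IFN-γ and LPS, and TGF-β1 was added after 24 h for another 48 h. The study's methods instead give 12 h for the M1 step and 24 or 48 h for TGF-β1, with 15 ng/mL of M-CSF and GM-CSF, 10 ng/mL of LPS, 1 ng/mL of IFN-γ and 10 ng/mL of TGF-β1, and which times hold for these libraries was not settled. All 6 cultures had thus received GM-CSF, LPS, IFN-γ and TGF-β1, and no untreated culture was analysed here.

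Library totals ran from 4400197 to 6096440 counts, with medians of 5013265 in sEH-/- and 5448287 in wild-type. Ephx2, the deleted gene, was read 4, 2 and 1 times in sEH-/- replicates 1 to 3 and 26, 49 and 57 times in the wild-type replicates, as the labels say. Its log2 fold change by edgeR was -4.05, with an SE of 0.43 and an adjusted p of 0.0042. The macrophage markers were all present, and their summed level was 1981 to 2453 CPM (counts scaled to the library total) in sEH-/- libraries, against 1741 to 2200 CPM for wild-type. None of these 8 markers was called (edgeR). All 8 had a log2 fold change above 0, with a median of 0.21, and 3 had an unadjusted p under 0.05. DESeq2 and limma-voom called 0 of the 8 as well. Cd14, a co-receptor of LPS, came closest, with an adjusted p of 0.029 (edgeR) and a log2 fold change of 0.50, short of the fold threshold. Cd68, Lyz2, Adgre1, Cd14 and Csf1r had 0.905, 0.881, 0.635, 0.529 and 0.506 counts per base of the longest coding transcript. Fcgr1, Mertk and Itgam lay below 0.5. Of the 280 tested genes above 0.5 edgeR called 0, so the lack of a call does not show equal levels of these markers.

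Most of the CC chemokines lay above wild-type in the sEH-/- macrophages. Of the 10 genes, 5 passed the test with higher values in sEH-/- (Ccl3, Ccl4, Ccl7, Ccl12 and Ccl22), 0 passed it with lower values, 4 were tested and not called (Ccl2, Ccl5, Ccl6 and Ccl9), and Ccl17 had too few counts to be tested. A gene was called at an adjusted p under 0.05 and a change of more than 1.5-fold in edgeR's quasi-likelihood test. Over all 13785 tested genes the same rule called 1.51% higher and 1.10% lower in sEH-/-. Among the members 0 had an unadjusted p under 0.05 with lower values, and DESeq2 and limma-voom also called 0 lower. All 9 tested members had a log2 fold change above 0, with a median of 0.70. Over all tested genes the median was -8.5e-04 and 49.8% of the genes lay above 0. By the adjusted p alone 6 of the 10 members were higher, against 2.39% of all tested genes. In 8 of the 10 members every sEH-/- library lay above every wild-type library, a pattern held by 11.8% of all tested genes. The members were chosen with earlier results of these data known, so these shares are set side by side as a description. In these bulk libraries more cells that make a chemokine and more of its RNA per cell cannot be told apart.

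**Figure D1:**
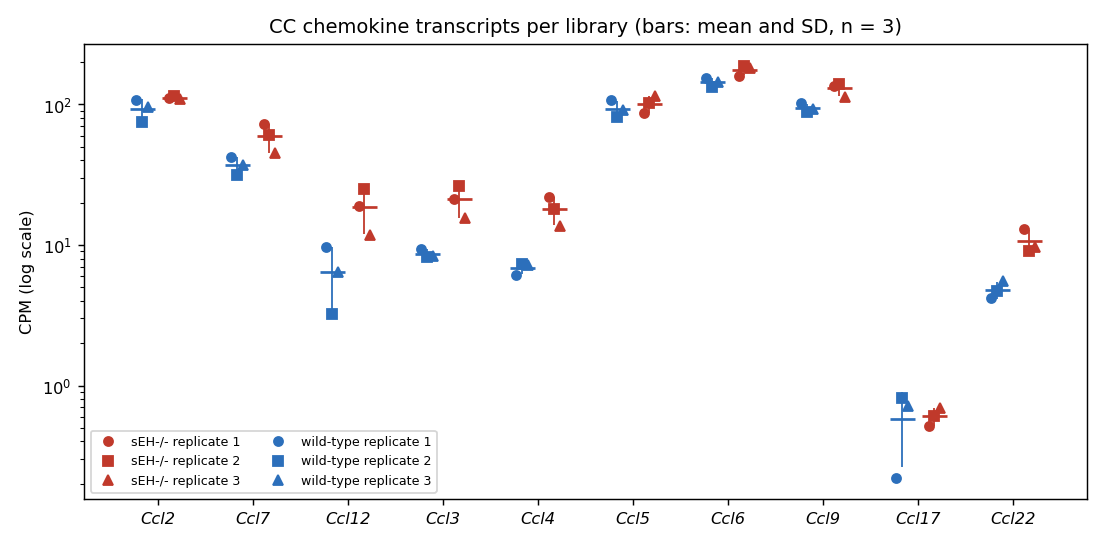
CPM of each CC chemokine in the 6 libraries on a log scale, with red points for sEH-/- and blue points for wild-type, marker shapes for the replicate number, and horizontal and vertical bars for the mean and SD of 3 libraries. The genotypes are apart for all members other than Ccl5 and Ccl17, and the means are farthest apart for Ccl12, at 18.7 and 6.45 CPM.

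For 3 of the members the stretch of 250 bases before the start site is shown, 2 because the genes were called (Ccl12 and Ccl3) and Ccl9 because it held most of the motifs searched. The sequences are from RefSeq on GRCm38.p6, run 5′ to 3′ on the strand of the gene, and capitals mark the motif matches. The table held 6 of the 10 members, Ccl3, Ccl6, Ccl9, Ccl12, Ccl17 and Ccl22. The Ccl12 stretch lies at chr11:82101595-82101844 on the plus strand, the Ccl3 stretch at chr11:83649379-83649628 on the minus strand and the Ccl9 stretch at chr11:83578637-83578886 on the minus strand.
Ccl12: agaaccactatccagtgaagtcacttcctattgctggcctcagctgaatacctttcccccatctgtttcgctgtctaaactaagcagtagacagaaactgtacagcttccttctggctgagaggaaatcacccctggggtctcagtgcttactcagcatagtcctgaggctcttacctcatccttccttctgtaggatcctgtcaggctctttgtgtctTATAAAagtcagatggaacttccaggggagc
Ccl3: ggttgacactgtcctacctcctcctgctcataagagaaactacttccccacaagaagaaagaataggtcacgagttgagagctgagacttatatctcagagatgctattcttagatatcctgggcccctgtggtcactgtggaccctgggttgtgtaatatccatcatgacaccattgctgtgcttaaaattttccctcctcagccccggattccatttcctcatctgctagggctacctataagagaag
Ccl9: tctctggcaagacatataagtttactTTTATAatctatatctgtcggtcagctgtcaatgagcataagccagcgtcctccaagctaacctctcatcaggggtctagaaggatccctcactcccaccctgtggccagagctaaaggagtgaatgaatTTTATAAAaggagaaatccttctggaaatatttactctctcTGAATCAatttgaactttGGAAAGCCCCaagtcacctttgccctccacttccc

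Altogether 6 motifs were searched on both strands in the 250 bases before the start site. The NF-κB motif, GGG and TTTCC with 2 free bases between them, was found in Ccl9, on the minus strand from base -35 counted from the start site, and in 1.41% of 32851 promoters of the table. A shorter form with TTCC in place of TTTCC, which overlaps it, was found at the same place in Ccl9 and in 4.98% of all promoters. The AP-1 motif TGANTCA, which reads alike on both strands, stood at base -53 of Ccl9 and in 6.75% of all promoters. The STAT motif TTCNNNGAA, also alike on both strands, stood at base -99 of Ccl17 and in 7.02% of all promoters. The TATA motif TATAAA stood at base -31 of Ccl12, where a TATA box of the general transcription machinery is usually placed, and in 12.4% of all promoters. In Ccl9 it matched farther upstream, from bases -224 and -94 on the minus strand and from base -92 on the plus strand. The matches from -94 and -92 overlap. The interferon-response motif, GAAA 2 times with 2 free bases between, was found in 0 of the 6 members and in 2.98% of all promoters. In Ccl3, Ccl6 and Ccl22 none of these letters stood in the window. For Ccl22 the RefSeq start site lies 94 bases inside the gene as deposited, so its window covers in part what the count table treats as the gene.

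The CCR2 ligands Ccl2, Ccl7 and Ccl12 lie in a cluster on chromosome 11 of mm10, and 2 of the 3 were called. Ccl7 and Ccl12 were higher in sEH-/- by the test, while Ccl2, the most abundant of the group, was not called. Ccl7 (MCP-3; ENSMUSG00000035373, chr11:82045712-82047525, plus strand, 3 exons) had counts of 424, 301 and 194 in sEH-/- against 193, 195 and 208 in wild-type. Scaled to the library this was 72.4, 60.6 and 44.9 CPM against 42.4, 31.6 and 37.2 CPM. The groups did not overlap, and sEH-/- replicate 3 lay close to the highest wild-type library. The mean rose from 37.1 ± 5.39 to 59.3 ± 13.8 CPM (SD, n = 3), with a log2 fold change of 0.70 (SE 0.17, 95% interval 0.33 to 1.07, adjusted p = 0.048, edgeR).

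Ccl12 (MCP-5; ENSMUSG00000035352, chr11:82101845-82103400, plus strand, 3 exons), a monocyte attractant of the mouse, had counts of 112, 125 and 51 in sEH-/- against 44, 20 and 36 in wild-type. These are 19.1, 25.2 and 11.8 CPM against 9.66, 3.24 and 6.44 CPM. The groups did not overlap, but the libraries of each genotype were spread widely. The log2 fold change of 1.58 (SE 0.36, 95% interval 0.77 to 2.39, adjusted p = 0.044, edgeR) was the largest among the members and had the widest interval. The means were 18.7 ± 6.70 CPM against 6.45 ± 3.21 CPM (SD, n = 3).

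Ccl2 (MCP-1; ENSMUSG00000035385, chr11:82035571-82037453, plus strand, 3 exons), the main ligand that brings monocytes out of the marrow and into tissue, had counts of 654, 568 and 471 in sEH-/- against 493, 466 and 538 in wild-type. After scaling these became 112, 114 and 109 CPM against 108, 75.5 and 96.3 CPM, so that each sEH-/- library lay above each wild-type library, the closest by little. The log2 fold change was 0.27 (SE 0.11, 95% interval 0.016 to 0.52), and the adjusted p was 0.19 (edgeR).

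In the group of Ccl3, Ccl4 and Ccl5, 2 genes were called higher in sEH-/-, Ccl3 and Ccl4, and Ccl5 was not. Ccl3 and Ccl4, also known as MIP-1α and MIP-1β, are made by activated macrophages and draw in monocytes, natural killer cells and T cells. Ccl3 (ENSMUSG00000000982, chr11:83647844-83649355, minus strand, 3 exons) had counts of 125, 131 and 67 in sEH-/- against 43, 51 and 47 in wild-type, or 21.3, 26.4 and 15.5 CPM against 9.44, 8.26 and 8.41 CPM. The wild-type libraries were close together and all sEH-/- libraries lay well above them. The log2 fold change was 1.29 (SE 0.21, 95% interval 0.81 to 1.76, adjusted p = 0.018, edgeR). Ccl4 (ENSMUSG00000018930, chr11:83662584-83664683, plus strand, 3 exons) had counts of 128, 90 and 59 in sEH-/- against 28, 45 and 40 in wild-type, or 21.9, 18.1 and 13.7 CPM against 6.14, 7.29 and 7.16 CPM. Its groups were apart in the same way, with a log2 fold change of 1.38 (SE 0.22, 95% interval 0.90 to 1.86, adjusted p = 0.016, edgeR).

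Ccl5 (RANTES; ENSMUSG00000035042, chr11:83525778-83530518, minus strand, 3 exons), which attracts T cells and monocytes, had counts of 507, 504 and 495 in sEH-/- against 491, 505 and 507 in wild-type. The raw counts were almost the same in all 6 libraries, although the libraries differed in total by 1.385 times. Scaled to the library, the sEH-/- libraries had 86.6, 102 and 115 CPM and the wild-type ones 108, 81.8 and 90.7 CPM, and the groups overlapped. The log2 fold change was 0.11 (SE 0.12, 95% interval -0.16 to 0.38, adjusted p = 0.63, edgeR).

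The authors removed duplicate reads before counting, and the highest Ccl5 count, 507, stands against a longest coding transcript of 532 bases. The 6 libraries had 0.923 to 0.953 counts per transcript base. Over all annotated exons of Ccl5, 960 bases, the mean was 0.522 counts per base. The variance of the 6 counts was 0.0923 of their mean, where independent random reads would give about 1. Of all tested genes 14 had a mean above 0.9 counts per transcript base, and their highest count was 1.03 to 1.31 times their lowest. Above 0.5 counts per base there were 280 tested genes, of which edgeR called 0, against 2.61% of all tested genes. Of these 280 genes 16 had an unadjusted p under 0.05 with higher and 2 with lower values in sEH-/-, and DESeq2 and limma-voom also called 0. Ccl5 (0.943), Ccl2 (0.654) and Ccl6 (0.579) were among these genes, whereas the called members had 0.315 (Ccl7), 0.120 (Ccl12), 0.101 (Ccl3), 0.0985 (Ccl4) and 0.0183 (Ccl22) counts per base. Over the 9 tested members the log2 fold change was lower where the counts per transcript base were higher, with a Spearman rho of -0.83, given as a description of genes that share the same 6 libraries. Over 13778 genes with a length the rho was 0.087. The part of duplicate removal in the values of Ccl2, Ccl5 and Ccl6 was not tested directly, and 7 genes of the table had a library at or above 1 count per transcript base. With counts corrected for a limit of 1 kept read per exonic base, the log2 fold change was 0.35 for Ccl2 (adjusted p = 0.13), 0.12 for Ccl5 (adjusted p = 0.60), 0.37 for Ccl6 (adjusted p = 0.041) and 0.88 for Ccl7 (adjusted p = 0.045, all edgeR). With the length of the longest coding transcript in its place, a choice made after seeing the data, the values were 0.45 for Ccl2 (adjusted p = 0.11), 0.14 for Ccl5 (adjusted p = 0.42), 0.42 for Ccl6 (adjusted p = 0.028) and 0.88 for Ccl7 (adjusted p = 0.043, all edgeR), and the members called were again 5. After the correction the rho over the 9 members was -0.82.

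**Figure D2:**
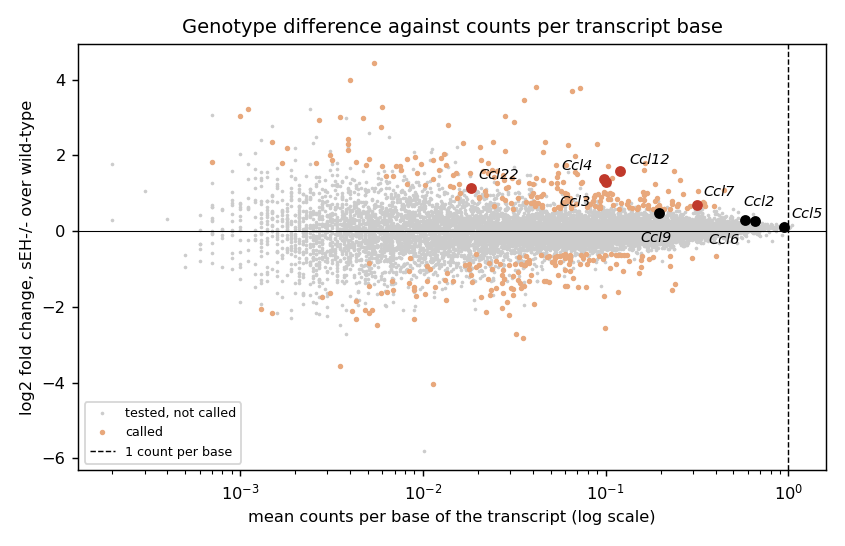
Log2 fold change (sEH-/- over wild-type) of each tested gene against its mean counts per base of the longest coding transcript on a log scale, with called genes in orange, other genes in grey, called CC chemokines in red and other CC chemokines in black. Ccl5, Ccl2 and Ccl6 lie at 0.943, 0.654 and 0.579 counts per base, in the range above 0.5 where 0 of 280 genes were called.

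The CCR1 ligands Ccl6 and Ccl9 stood apart between the genotypes by small differences, and neither was called. Ccl6 (C10; ENSMUSG00000018927, chr11:83587882-83593087, minus strand, 4 exons) is a chemokine of rodent macrophages and had counts of 934, 930 and 791 in sEH-/- against 703, 828 and 813 in wild-type. This is 160, 187 and 183 CPM against 154, 134 and 145 CPM, with no overlap. The log2 fold change was 0.29 (SE 0.084, 95% interval 0.10 to 0.48, adjusted p = 0.074, edgeR). Ccl9 (MIP-1γ; ENSMUSG00000019122, chr11:83572919-83578636, minus strand, 4 exons), which myeloid cells and osteoclasts make, had counts of 798, 700 and 487 in sEH-/- against 463, 547 and 519 in wild-type. Its 136, 141 and 113 CPM in sEH-/- lay above the 102, 88.6 and 92.9 CPM in wild-type in each library. Its log2 fold change of 0.47 (SE 0.095, 95% interval 0.26 to 0.68) passed the adjusted p (0.030, edgeR) but was below the fold threshold.

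The CCR4 ligands lie on chromosome 8 and were scarce. GM-CSF is known to raise both in macrophages through the histone demethylase Kdm6b and the factor Irf4. Ccl22 (MDC; ENSMUSG00000031779, chr8:94745590-94751699, plus strand, 3 exons) had counts of 77, 45 and 42 in sEH-/- against 19, 29 and 31 in wild-type. It had 13.1, 9.06 and 9.72 CPM against 4.17, 4.70 and 5.55 CPM, without overlap. The mean rose from 4.80 ± 0.695 to 10.6 ± 2.19 CPM (SD, n = 3), with a log2 fold change of 1.15 (SE 0.24, 95% interval 0.60 to 1.69, adjusted p = 0.034, edgeR). Ccl17 (TARC; ENSMUSG00000031780, chr8:94810453-94812036, plus strand, 3 exons) had 3 counts in each sEH-/- library, against 1, 5 and 4 counts. The sums were 9 and 10 counts, a ratio scaled to library size of 0.970 with an exact 95% counting interval of 0.349 to 2.66. The fold seen for Ccl22, 2.22 by the mean CPM, lies within this interval of the summed counts and is not excluded by them.

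**Figure D3:**
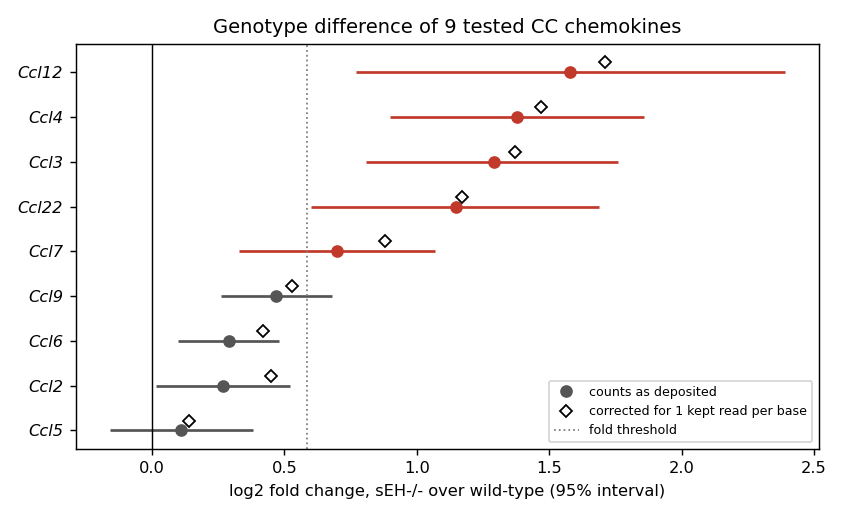
Log2 fold change (sEH-/- over wild-type) of the 9 tested CC chemokines with 95% intervals from edgeR, red for called and grey for uncalled genes, and open diamonds for the value after the correction for 1 kept read per transcript base. The values run from 0.11 for Ccl5 to 1.58 for Ccl12, and the interval of Ccl5 is the one that includes 0.

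The 5 calls depended on some of the libraries. With wild-type replicate 2 or wild-type replicate 3 left out, edgeR called 0 of the 9 tested members, while 7 had an unadjusted p under 0.05 with higher values in sEH-/-, as did 7.10% and 7.69% of all genes tested in these fits, in that order. The number of all genes called fell at the same time from 360 to 25 without wild-type replicate 2 and to 6 without wild-type replicate 3. With sEH-/- replicate 1 or sEH-/- replicate 2 left out, 2 members were called, Ccl3 and Ccl4 in both cases. With sEH-/- replicate 3 or wild-type replicate 1 left out, 5 were called. The log2 fold changes moved less than the calls, from 1.11 to 1.46 for Ccl3, from 1.21 to 1.54 for Ccl4, from 0.96 to 1.27 for Ccl22, from 1.24 to 1.97 for Ccl12 and from 0.53 to 0.87 for Ccl7. Their adjusted p-values ranged from 0.0058 to 0.12, 0.0062 to 0.11, 0.034 to 0.17, 0.020 to 0.17 and 0.012 to 0.21 (edgeR). Of these genes Ccl3 and Ccl4 lost their call in 2 of all 17 alternatives, Ccl22 in 6, and Ccl7 and Ccl12 in 7 each, and 0 of the 9 members changed sign in any.

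**Figure D4:**
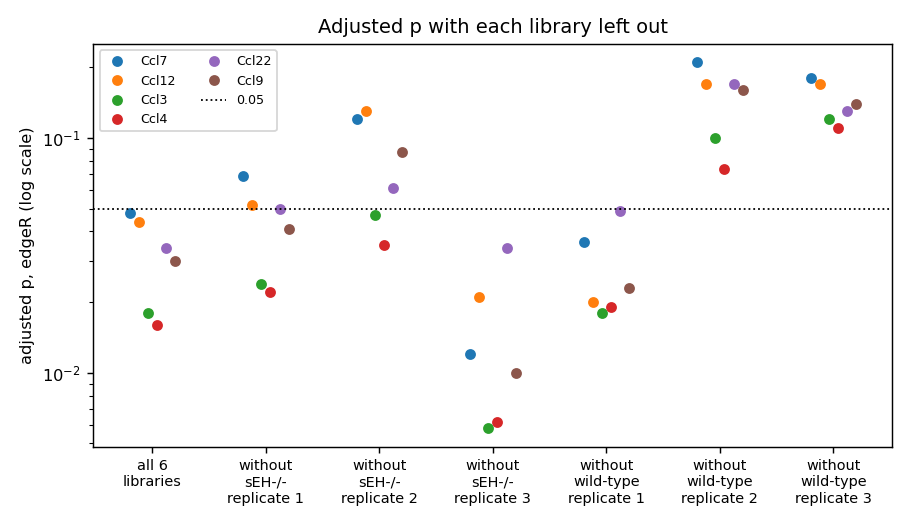
Adjusted p (edgeR, log scale) of the 5 called CC chemokines and Ccl9 with all 6 libraries and after leaving out 1 library at a time, with a dotted line at 0.05. Without wild-type replicate 2 or 3 every point lies above the line, and Ccl4, at 0.074 and 0.11, is the lowest of the 6 genes in both.

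The libraries of a genotype differed over the members as a group. Taken as the median log2 distance of the 9 tested members from the wild-type mean, the sEH-/- libraries stood at 0.97, 0.71 and 0.34 and the wild-type libraries at 0.11, -0.11 and 0.016. sEH-/- replicate 3 was the lowest sEH-/- library for 6 of the 9 members. Wild-type replicate 1 was the highest wild-type library for 7 of the 9, and wild-type replicate 2 the lowest for 7. sEH-/- replicate 3 also had the smallest library total and wild-type replicate 2 the largest. With the library total as a covariate 3 members were called (Ccl3, Ccl4 and Ccl22), and with all libraries thinned to the smallest total 3 were called (Ccl3, Ccl4 and Ccl7).

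Levels were compared between genes as CPM per kilobase of the longest coding transcript. In wild-type macrophages the order was Ccl5 (176 ± 24.8), Ccl2 (115 ± 20.4), Ccl6 (100 ± 7.02), Ccl7 (46.3 ± 6.72), Ccl9 (31.4 ± 2.20), Ccl12 (SD 5.97, with a lowest library of 6.03), Ccl3 (11.4 ± 0.835), Ccl4 (10.4 ± 0.949), Ccl22 (2.17 ± 0.314) and Ccl17 (1.13 ± 0.617; SD, n = 3). Ccl2 and Ccl6 overlapped in their ranges, as did Ccl12, Ccl3 and Ccl4, while the other neighbours in the order were apart. Ccl5 ranked 6 of 13778 genes by this level, Ccl2 ranked 128 and Ccl6 ranked 217, while Ccl22 ranked 11441. Ccl5, Ccl2 and Ccl6 had 0.943, 0.654 and 0.579 counts per transcript base, and duplicate removal can limit such counts. Its part in the order and the ranks was not tested. The order of the means was the same in sEH-/-, where Ccl9 (43.2 ± 5.04), Ccl12 (34.8 ± 12.5), Ccl3 (27.5 ± 7.11) and Ccl4 (27.1 ± 6.22) overlapped with their neighbours.

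Summed by group, the CCR2 ligands had 263, 263 and 212 CPM per kilobase in sEH-/- and 204, 138 and 177 in wild-type, 1.42 times as much by the means. Ccl3, Ccl4 and Ccl5 together had 224, 253 and 256 against 224, 176 and 192, a ratio of 1.24, with sEH-/- replicate 1 level with wild-type replicate 1, and most of this sum was Ccl5. Ccl6 and Ccl9 had 156, 177 and 165 against 141, 123 and 132, a ratio of 1.26. The CCR4 ligands had 6.93, 5.27 and 5.74 against 2.31, 3.70 and 3.90, a ratio of 1.81. Of the sum over all 10 genes, Ccl5 took 34.7% ± 0.862 in wild-type and 28.7% ± 4.50 in sEH-/-, and Ccl12 took 2.30% ± 0.891 and 5.21% ± 1.65 (SD, n = 3). These sums and shares are given as a description. Ccl5 had 0.943 counts per transcript base, and the part of duplicate removal in the sums and shares was not tested.

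The ratio of paired members within a library asked whether related genes moved to the same extent. The log2 ratio of Ccl2 to Ccl12 was 2.52, 2.16 and 3.15 in sEH-/- and ran from 3.42 to 4.34 in the wild-type libraries. It was lower in each sEH-/- library, with a difference of -1.24 (exact permutation p = 0.10, adjusted over 5 pairs 0.25). The log2 ratio of Ccl17 to Ccl22 was -3.75, -3.11 and -3.10 in sEH-/-, against -2.70, -1.99 and -2.31 in wild-type, also without overlap, with a difference of -0.99 (exact permutation p = 0.10, adjusted 0.25), but it rests on the 1 to 5 counts of Ccl17. With 3 libraries against 3 the two-sided test cannot give a p under 0.1. The groups overlapped for Ccl2 to Ccl7 (difference -0.38, exact permutation p = 0.20), Ccl6 to Ccl9 (-0.17, exact permutation p = 0.40) and Ccl3 to Ccl4 (-0.10, exact permutation p = 0.60), with adjusted values of 0.33, 0.50 and 0.60. The sign for Ccl3 to Ccl4 turned without replicate 1 of either genotype, to 0.030 in both cases.

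**Figure D5:**
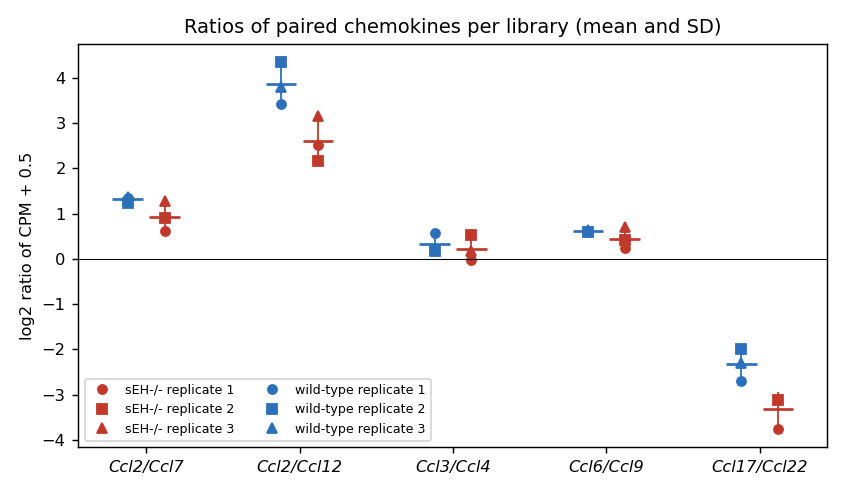
Log2 ratio of CPM + 0.5 for 5 pairs of CC chemokines in each library, red for sEH-/- and blue for wild-type, with the mean and SD of 3 libraries. The genotypes are apart for Ccl2 to Ccl12 and for Ccl17 to Ccl22, and both Ccl3 to Ccl4 groups lie between -0.033 and 0.58.

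Other CC ligands did not pass the test. Of 10 listed, 7 were in the table and 4 were tested, and edgeR, DESeq2 and limma-voom each called 0 of them, with 0 at an unadjusted p under 0.05. Ccl8, a further monocyte attractant that neighbours Ccl12, had counts of 103, 129 and 79 in sEH-/- against 82, 140 and 135 in wild-type. The groups overlapped, with a log2 fold change of -0.076 ± 0.18 (SE) and an adjusted p of 0.85 (edgeR). Ccl24, an eosinophil attractant, had 37, 9 and 10 counts against 8, 12 and 16, with 1 high sEH-/- library and an adjusted p of 0.42 (edgeR). Ccl11, which also draws eosinophils and lies between Ccl7 and Ccl12, had 1 count in the 6 libraries together.

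Of 15 listed CC and atypical receptors 11 were in the table and 7 were tested, and edgeR, DESeq2 and limma-voom each called 0. At an unadjusted p under 0.05, 3 receptors were higher in sEH-/- by edgeR and 0 lower, namely Ccr1, Ccr2 and Ccr3, the last named after its values were seen. Ccr1, a receptor of Ccl3, Ccl5, Ccl6 and Ccl9, was abundant in both genotypes. It had 255 ± 9.53 CPM in sEH-/- and 219 ± 26.6 in wild-type (SD, n = 3), which is 0.22 ± 0.092 (SE) on the log2 scale (adjusted p = 0.18, edgeR). The groups overlapped. Ccr2, the receptor of Ccl2, Ccl7 and Ccl12, had counts of 8, 7 and 8 in sEH-/- against 5, 2 and 1 in wild-type, without overlap but with an adjusted p of 0.13 (edgeR). Ccr4, the receptor of Ccl17 and Ccl22, had at most 7 counts in a library and was not tested. Ccrl2, an atypical receptor that binds chemerin, had a log2 fold change of -0.0052 (adjusted p = 0.99, edgeR).

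Downstream of the receptors, 3 of 29 tested signalling and trafficking genes were called, all higher in sEH-/-, against 1.51% of all tested genes called higher. These 3 were among the 7 regulators of G protein signalling in the list, which shorten the signal of G proteins. Rgs1 (adjusted p = 0.50), Rgs10 (0.94), Rgs18 (0.64) and Rgs19 (0.14, edgeR) were not called. Rgs16 had counts of 61, 124 and 78 in sEH-/- against 38, 30 and 27 in wild-type, and Rgs14 had 357, 371 and 176 against 152, 149 and 175. Rgs2 had 533, 612 and 469 against 377, 358 and 388. In CPM the groups of each were apart, and the log2 fold changes were 1.58 (SE 0.34, adjusted p = 0.035), 1.01 (SE 0.20, adjusted p = 0.029) and 0.62 (SE 0.14, adjusted p = 0.039, edgeR). Without wild-type replicate 2, wild-type replicate 3 or sEH-/- replicate 2 none of the 3 was called (edgeR), with adjusted p-values of up to 0.168 for Rgs2, 0.151 for Rgs14 and 0.170 for Rgs16 and all 3 still above wild-type, and Rgs2 was also lost without sEH-/- replicate 3. At an unadjusted p under 0.05, 9 of the 29 genes were higher in sEH-/-, the 3 called among them, and 0 were lower (edgeR). The abundant Prex1 and Ptk2b had adjusted p-values of 0.17 and 0.93 (edgeR).

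Factors that promote or restrain the decay of mRNA were not called, with 0 of 9 by edgeR, DESeq2 and limma-voom and 1 at an unadjusted p under 0.05. Zfp36l1, a decay factor named here after its values were seen, was that gene, with a log2 fold change of 0.57 (adjusted p = 0.087, edgeR). Of 9 factors linked to Ccl17 and Ccl22, 0 were called by the 3 tools, and at an unadjusted p under 0.05 edgeR had 1 higher and 1 lower. The higher was Csf2ra and the lower Kdm6b, both named after their values were seen. Kdm6b had counts of 427, 324 and 373 in sEH-/- against 455, 716 and 543 in wild-type. Its log2 fold change of -0.49 passed the adjusted p (SE 0.11, adjusted p = 0.041, edgeR) and was short of the fold threshold. Kdm6b was below wild-type in each sEH-/- library and Ccl22 was above it, and a link between the genes was not tested. Irf4 had overlapping groups and a log2 fold change of 0.10 (adjusted p = 0.89, edgeR).

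Markers of each other cell type summed to less than the macrophage markers, which had at least 1741 CPM in every library. Several of these sums were above the level of a called chemokine such as Ccl3, at 8.70 CPM in wild-type. The 7 neutrophil markers in the table, of 10 listed, summed to 28.3 to 32.0 CPM in sEH-/- and 17.6 to 21.1 in wild-type, without overlap. This sum was mostly S100a8, with counts of 140, 147 and 117 in sEH-/- against 78, 112 and 112 in wild-type (log2 fold change 0.54, adjusted p = 0.057, edgeR), while S100a9, Elane, Ngp and Camp had few counts. Within wild-type, S100a8 was lowest in replicate 1 (17.1 CPM), the highest wild-type library for 7 of the 9 members. Which cells the S100a8 reads came from, and any part of neutrophils in the chemokine values, was not tested. The summed levels of the other lists overlapped between genotypes, at 27.7 to 58.1 against 42.1 to 59.4 CPM for dendritic cells (6 of 8 markers in the table, Cd209a at 0), 16.4 to 35.9 against 20.6 to 30.6 CPM for lymphocytes (2 of 9), 6.66 to 19.0 against 11.4 to 17.3 CPM for mast cells, basophils and eosinophils (2 of 7) and 16.2 to 34.8 against 12.3 to 65.4 CPM for stromal cells (7 of 8). The stromal sum was uneven in wild-type, where Col1a1 had 4, 121 and 34 counts and Col1a2 had 8, 171 and 58, highest in wild-type replicate 2, the library that was lowest for 7 of the 9 members. Col1a2, and Zbtb46 of the dendritic cell list, had lower values in sEH-/- at an unadjusted p of 0.021 and 0.015, with an adjusted p of 0.14 and 0.11 (edgeR), and both are named after their values were seen. The part of stromal and dendritic cells in the chemokine values was not tested. Of the erythroid markers 0 of 6 were in the table.

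Among 10276 tested genes whose counts averaged 50 or more, the genes most like Ccl12 over the 6 libraries in log2 CPM were Adar (Pearson r = 0.998), which edits double-stranded RNA, Atp6v0c, a subunit of the vacuolar proton pump, Trim34a, Acin1 and Mx1, an interferon-induced GTPase, the last 4 at 0.996. This is a description over 6 libraries of 2 genotypes, and 652 of the genes compared had an r of at least 0.9. Of the members, Ccl9 was the most like Ccl12, with an r of 0.961, followed by Ccl7 (0.930), Ccl3 (0.921) and Ccl2 (0.917).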

How the data were processed

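Total RNA of the 6 macrophage cultures was sequenced, and the deposited table held raw read counts per gene made by the authors, not normalized, with 19309 genes and mm10 coordinates. The submitters' processing notes name Trimmomatic 0.39, STAR 2.7.7a, Picard 2.21.7 for duplicates, featureCounts 1.6.5 and DESeq2 1.30.0, while the study's methods give other versions of the last 4, and the library kit also differs between labels and methods. Because duplicates were removed, the count of a short, abundant gene can be limited by its length.

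Genes with a mean above 5 counts (13785) were fitted in R 4.3.3 with edgeR 4.0.16 (TMM, factors 0.982 to 1.03, common biological coefficient of variation 0.0866), 3 sEH-/- against 3 wild-type, with Benjamini-Hochberg adjustment over all of them. Calls needed an adjusted p under 0.05 and more than a 1.5-fold change. DESeq2 1.42.0, limma 3.58.1 (voom), other scalings, filters and depths, left-out libraries and a correction for 1 kept read per base were alternatives. Transcript lengths were the longest protein-coding ones of GENCODE M21. Libraries of 1 genotype differed by more than counting noise (chi-square per degree of freedom 2.24 to 4.89). The count test was tested on simulated data. Pair ratios used CPM + 0.5 and exact permutation tests. Counting intervals cover counting error only.

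The members and lists were chosen with earlier results of these data known. Named were all members, Ephx2, every called gene of the pathway lists with at most 3 abundant uncalled genes each and chosen receptors and other ligands, and the 5 genes of at least 50 mean counts most like the member with the largest fold change. One item covered by this rule is not reported here.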

Additional observations from a re-analysis of the deposited data

How the results depend on the processing

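The sign of the 9 tested members held under all 17 alternatives. The members called, 5 as reported, were 3 with the replicate block, 3 with the library total as a covariate and 3 after thinning to the smallest library, and 0 to 5 with 1 library left out. All genes called, 360 as reported, were 234 with the replicate block, 171 with the covariate and 553 without the fold threshold, and 6 to 625 with 1 library left out. The replicate numbers are not stated to mark a shared litter or day, and same-numbered libraries did not deviate together (correlations -0.0859, -0.269 and -0.0383), so the block is given as an alternative only. The share of calls that were higher in sEH-/- was 57.8% as reported, 53.3% with no count filter, 53.4% on library totals, 63.7% with the replicate block, 70.8% with the covariate, and 50.1% (without wild-type replicate 1) to 80.0% (without wild-type replicate 2) with 1 library left out. The log2 ratio of Ccl3 to Ccl4 went from -0.10 to 0.030 without sEH-/- replicate 1 and to 0.030 without wild-type replicate 1, and ranged from -0.25 to 0.030 with 1 library left out. The cause of these shifts was not tested. Ephx2 stayed between -4.53 and -3.79. Few counts limit what can be said of Ccl17, Ccr2, Ccr4 and Ccl11.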
